A study of Mus musculus with 28 samples.

Results

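Heat shock protein genes encode the molecular chaperones that keep other proteins folded, and 9 of them were followed here through mouse male germ cell development by their histone H3 lysine 27 acetylation (H3K27ac), a mark of active promoters and enhancers. The set comprised the HSP70 genes Hspa2, Hspa1l, Hspa1a, Hspa1b, Hspa5 and Hspa8, the HSP110-type gene Hspa4l, and the genes of the heat shock transcription factors Hsf1 and Hsf2. Every peak listed under one of these symbols was collected, and a peak was counted as a promoter peak when it came within 1 kb of a start listed under that symbol alone. This gave 254 of the 471458 peaks called in 12 H3K27ac libraries, of which 115 were promoter peaks and 139 lay elsewhere. The 9 genes were 9 of 17923 genes with a start listed under a single symbol.

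The libraries were made by ChIPmentation, chromatin immunoprecipitation in which a transposase inserts the sequencing adapters, from testis germ cells of C57BL/6 mice. Thy1+ spermatogonia, a fraction that holds the undifferentiated cells, and c-Kit+ spermatogonia, the differentiating cells, were taken at postnatal day 7 from wild-type mice (WT) and from mice with a knockout of Scml2 (KO), a gene for a germline Polycomb-type protein. Pachytene spermatocytes (PS), in meiotic prophase, and round spermatids (RS), the haploid cells after meiosis, came from adult KO mice. Each of these 6 groups had 2 H3K27ac libraries, and 16 input libraries covered 8 groups. No H3K27ac library of wild-type adult cells was used here, so every comparison that involves PS or RS is within the knockout, and stage and age cannot be told apart when they are compared with spermatogonia. The labels do not say which cells were isolated by magnetic sorting and which by sedimentation, nor whether replicates came from separate animals, so p-values measure only the spread between these libraries, which may be technical.

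HSP70 proteins bind unfolded stretches of other proteins in a cycle driven by ATP. HSP40 proteins deliver the client and start ATP hydrolysis, and HSP110 proteins and other exchange factors release the ADP. HSF1 and HSF2 bind heat shock elements, arrays of the unit GAA facing alternate ways, and HSF1 switches on the inducible genes Hspa1a and Hspa1b after stress. The testis is known for chaperones of its own: HSPA2 is abundant in spermatocytes and male mice lacking it arrest in meiosis, HSPA1L appears in spermatids, and HSPA4L is enriched in male germ cells.

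The promoter sequences of 6 members are shown because the members differed in how far acetylation reached over them. They are the 250 bases before the start, 5′ to 3′ on the strand of the gene, from RefSeq on GRCm38.p6, and 7 of the 9 members had an entry. Capitals mark matches on either strand to GAANNTTC (2 facing heat shock units), CCAAT (the CCAAT box), GGGCGG (the GC box), TATAA (the TATA box) or TGACG (the core of the cyclic AMP response element). The windows are chr12:76404120-76404369 on the plus strand for Hspa2, chr3:40745363-40745612 (plus) for Hspa4l, chr17:34972453-34972702 (plus) for Hspa1l, chr17:34972157-34972406 (minus) for Hspa1a, chr17:34959239-34959488 (minus) for Hspa1b and chr2:34771840-34772089 (plus) for Hspa5.
Hspa2: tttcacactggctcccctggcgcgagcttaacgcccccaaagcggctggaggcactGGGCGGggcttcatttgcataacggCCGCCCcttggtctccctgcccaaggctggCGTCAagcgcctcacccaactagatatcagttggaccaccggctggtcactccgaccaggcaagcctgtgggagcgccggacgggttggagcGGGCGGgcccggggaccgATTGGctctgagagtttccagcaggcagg
Hspa4l: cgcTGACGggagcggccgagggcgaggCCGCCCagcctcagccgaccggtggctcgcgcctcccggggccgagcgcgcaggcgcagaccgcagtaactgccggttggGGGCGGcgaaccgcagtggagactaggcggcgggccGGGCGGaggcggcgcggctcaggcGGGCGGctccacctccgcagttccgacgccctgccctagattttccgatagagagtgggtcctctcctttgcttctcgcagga
Hspa1l: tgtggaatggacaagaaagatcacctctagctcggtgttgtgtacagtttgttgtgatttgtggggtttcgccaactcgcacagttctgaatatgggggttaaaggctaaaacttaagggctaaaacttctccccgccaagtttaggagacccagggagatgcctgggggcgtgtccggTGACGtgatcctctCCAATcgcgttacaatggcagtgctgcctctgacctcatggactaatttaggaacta
Hspa1a: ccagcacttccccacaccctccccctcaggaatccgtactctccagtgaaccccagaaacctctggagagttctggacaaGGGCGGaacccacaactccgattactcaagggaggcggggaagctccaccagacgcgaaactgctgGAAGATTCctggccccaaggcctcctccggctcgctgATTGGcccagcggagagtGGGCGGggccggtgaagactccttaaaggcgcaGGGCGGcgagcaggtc
Hspa1b: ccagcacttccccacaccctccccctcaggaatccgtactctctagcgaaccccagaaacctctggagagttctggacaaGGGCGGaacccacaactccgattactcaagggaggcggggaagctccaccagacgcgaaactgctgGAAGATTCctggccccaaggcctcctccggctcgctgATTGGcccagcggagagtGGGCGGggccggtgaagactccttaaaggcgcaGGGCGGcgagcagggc
Hspa5: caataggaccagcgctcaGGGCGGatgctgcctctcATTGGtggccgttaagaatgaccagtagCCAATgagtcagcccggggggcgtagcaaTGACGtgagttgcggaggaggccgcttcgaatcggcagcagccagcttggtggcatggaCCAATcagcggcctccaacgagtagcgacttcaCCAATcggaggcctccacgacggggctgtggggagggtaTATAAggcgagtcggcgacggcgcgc

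GAANNTTC was found in the promoters of Hspa1a and Hspa1b, the stress-inducible pair, as GAAGATTC from 104 to 97 bases before the start, and in none of the other 5 sequences; 6.69% of 32851 mouse promoters of the same length hold a match. The opposite arrangement, TTCNNGAA, was in none of the 7, against 7.17% of promoters. CCAAT was in 6 of 7 (33.8% of promoters), all but Hspa4l, and GGGCGG in 6 of 7 (32.7%), all but Hspa1l. The sequences held 62.4% to 73.6% G and C, except Hspa1l with 49.6%, against a median of 52.4% over the 32851 promoters. The part of this base content in the matches was not tested, and the near-identical Hspa1a and Hspa1b count as 2 of the 7. TGACG was in Hspa2, Hspa1l, Hspa4l and Hspa5 (17.8% of promoters). The promoter of Hspa5, the gene of the endoplasmic reticulum chaperone BiP, had 4 CCAAT boxes and was the 1 member with TATAA (22.8% of promoters). It was also the 1 member with the endoplasmic reticulum stress element (an exact match to the CCAAT box, a spacer and CCACG), which overlaps its CCAAT match nearest to the start and which 0.113% of promoters hold. Such matches describe letters only, and no match says nothing of a factor. The 250 bases of Hspa1a and Hspa1b were 98.8% identical, with the 3 substitutions C44T, T47C and T249G (Hspa1a base, position from 1 at the 5′ end, Hspa1b base). Since the copies are so alike, values at sequence they share are uncertain, and how reads were shared between them was not tested.

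All values below are the deposited fold enrichment, the height of the signal at a peak's highest summit over a background height that is constant within a library. Promoter peaks of the members were called in 106 of 108 pairs of gene and H3K27ac library and in 0 of 144 pairs in the inputs. Both misses were in c-Kit+ KO replicate 2, where the peak shared by Hspa1a and Hspa1l was not called. The 7 other genes had a promoter peak in all 12 libraries, as did 48.8% of all genes. Thy1+ KO replicate 1 stood above the other spermatogonial libraries genome-wide, with a median log2 fold enrichment of 4.11 over 9585 regions against 3.01 to 3.44 in the other 7, and it gave the highest spermatogonial value of every member except Hspa4l. Fold enrichments are given raw, and the tests used each library centred on its median, so that a change is relative to the median region. Before centring the median region differed by 0.27 log2 units between KO and WT, -0.27 between c-Kit+ and Thy1+, 1.08 between PS and c-Kit+, -0.19 between RS and PS, and 0.68 between adult and spermatogonial KO cells. The number of called peaks ranged from 17877 to 36362 in spermatogonial and from 63322 to 73316 in adult libraries, and the read depth is unknown.

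The 9 promoters differed in level and in pattern. Hspa2 and Hspa4l were low in spermatogonia and high in both adult stages, Hspa1a and Hspa1l followed at a lower level, and Hspa5 and Hspa8 were high in all groups.

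**Figure D1:**
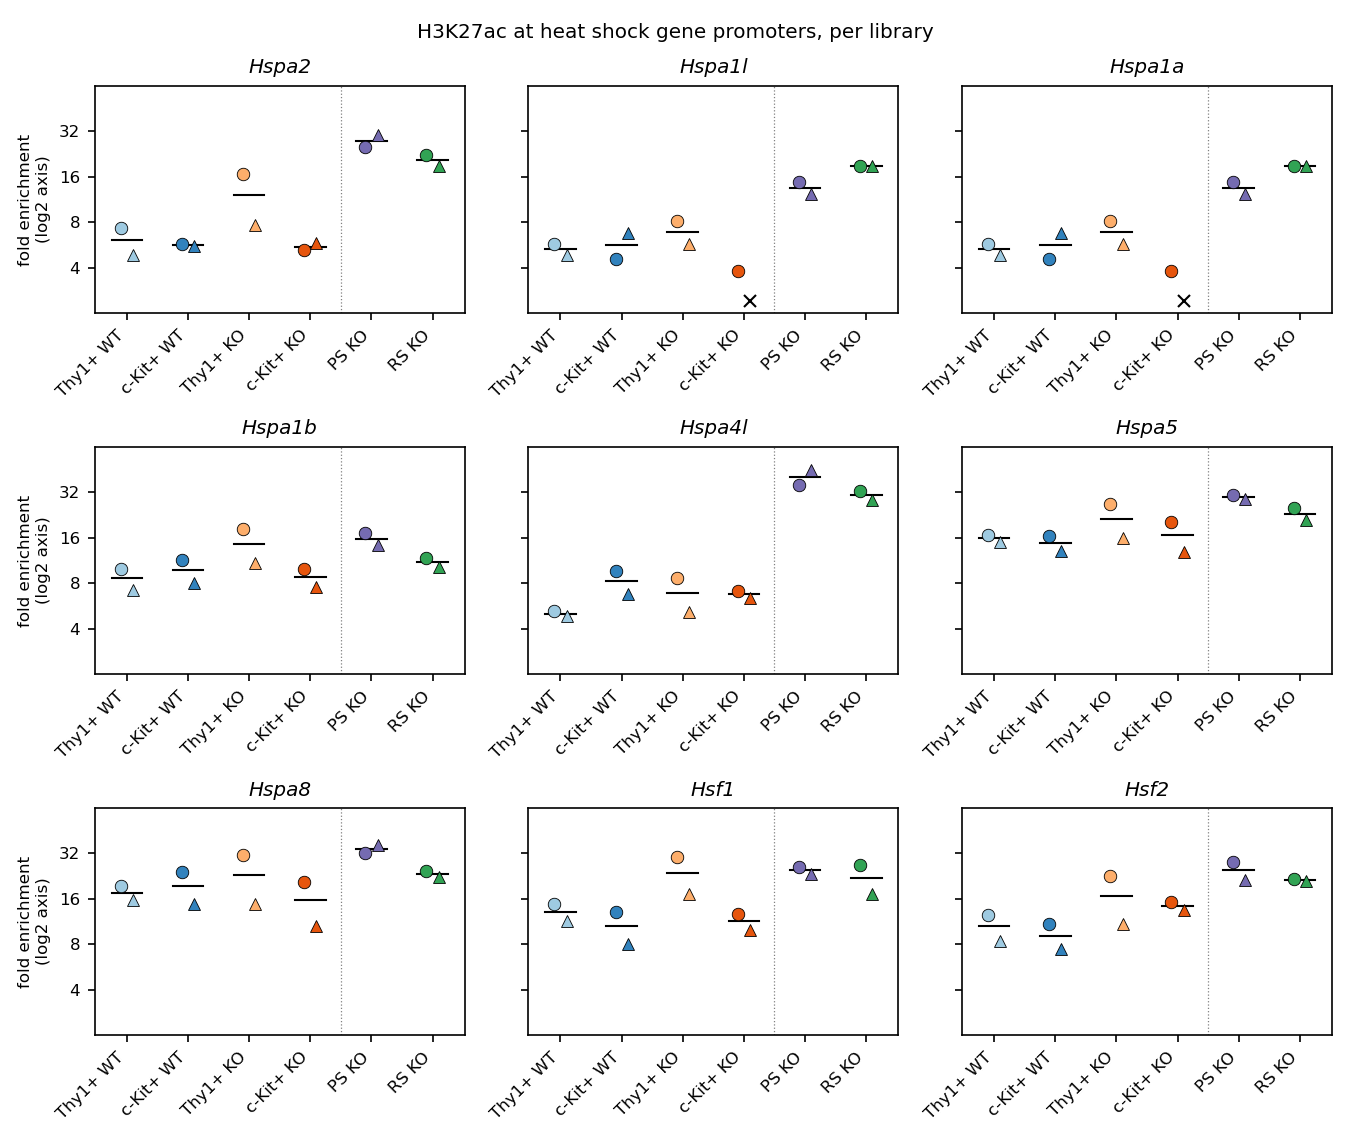
Fold enrichment of the highest H3K27ac promoter peak (log2 axis) in each library for the 9 members; circles are replicate 1, triangles replicate 2, bars the mean of 2, a cross a library with no call, and the dotted line separates spermatogonia from adult stages. The 4 adult values of Hspa2 and Hspa4l lie above all 8 spermatogonial values.

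Hspa2, the HSP70 gene required for meiosis in males, had fold enrichments of 7.34 and 4.83 in Thy1+ WT, 5.70 and 5.58 in c-Kit+ WT, 16.7 and 7.67 in Thy1+ KO, and 5.20 and 5.83 in c-Kit+ KO libraries. The adult values were 25.2 and 30.4 in PS and 22.3 and 18.9 in RS. The adult libraries thus did not overlap the spermatogonial ones, the nearest being Thy1+ KO replicate 1. Within its own library the Hspa2 promoter ranked above 6.18% to 56.0% of genes with a promoter peak in spermatogonia and above 75.7% to 86.0% in adult cells.

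Hspa4l encodes a nucleotide exchange factor that resets HSP70. Its fold enrichments were 5.24 and 4.83 in Thy1+ WT, 9.69 and 6.82 in c-Kit+ WT, 8.61 and 5.12 in Thy1+ KO, and 7.09 and 6.41 in c-Kit+ KO libraries, against 35.8 and 44.8 in PS and 32.5 and 28.7 in RS. No spermatogonial library came near the adult range. Its rank moved from above 4.78% to 48.9% of promoters in spermatogonia to above 96.2% to 99.3% in adult libraries, the highest of the 9 members there. Hspa2 and Hspa4l were the only members, of the 7 called in all 12 libraries, whose 4 adult fold enrichments exceeded all 8 spermatogonial ones. Of 8752 genes 22.4% did so. By rank within the library both did as well, against 13.4% of genes. For Hspa5, Hsf1 and Hsf2 the overlap in fold enrichment came from Thy1+ KO replicate 1 alone. Their other spermatogonial values reached 20.3, 17.27 and 15.1, and their adult values began at 21.1, 17.31 and 21.1. The share of all genes that overlapped only through that library was not computed.

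Hspa1a, the inducible HSP70, and Hspa1l, its germ cell relative, are divergent genes whose starts lie 547 bp apart on chromosome 17 and which share 1 peak and 1 set of values. The shared peak measured 5.76 and 4.83 in Thy1+ WT, 4.56 and 6.82 in c-Kit+ WT, and 8.10 and 5.76 in Thy1+ KO libraries. It measured 3.78 in c-Kit+ KO replicate 1, 14.9 and 12.3 in PS, and 18.8 and 18.9 in RS libraries. The 4 adult values lay above the 7 spermatogonial ones, as they did in 31.3% of 659 genes called in the 4 adult and exactly 7 spermatogonial libraries. RS was above PS in both libraries, an order that no other member showed. Because the histone mark is measured over both genes, these data cannot assign it to either.

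Hspa1b, the other inducible copy, measured 9.96 and 7.24 in Thy1+ WT, 11.4 and 8.06 in c-Kit+ WT, 18.2 and 10.9 in Thy1+ KO, and 9.93 and 7.58 in c-Kit+ KO libraries. Its adult values, 17.2 and 14.4 in PS and 11.7 and 10.3 in RS, lay inside the spermatogonial range. It ranked above 35.3% to 61.8% of promoters in every library, the middle of the distribution.

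Hspa8 and Hspa5 serve every cell, and they were the members with the highest mean in Thy1+ WT, c-Kit+ WT and c-Kit+ KO cells, while Hsf1 was highest in Thy1+ KO cells. Hspa8, the constitutive HSC70 of the cytosol, ranged from 10.5 to 31.4 in spermatogonia and from 22.2 to 36.3 in adult libraries. Hspa5 (BiP) ranged from 12.8 to 26.8 in spermatogonia with a median of 16.3, and from 21.1 to 30.9 in adult libraries with a median of 26.9. Both overlapped between the 2 ages, Hspa5 only through Thy1+ KO replicate 1 (26.8), since its other spermatogonial values reached 20.3. Hspa5 held a nearly constant rank, above 82.5% to 94.5% of promoters in all 12 libraries.

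Of the transcription factor genes, Hsf1 measured 14.7 and 11.5 in Thy1+ WT, 13.1 and 8.06 in c-Kit+ WT, 30.4 and 17.3 in Thy1+ KO, 12.8 and 9.91 in c-Kit+ KO, 25.9 and 23.5 in PS, and 26.99 and 17.3 in RS libraries. Hsf1 shares its promoter with the divergent ribosome biogenesis gene Bop1, whose start lies 176 bp away. Hsf2 measured 12.6 and 8.45 in Thy1+ WT, 10.8 and 7.44 in c-Kit+ WT, 22.8 and 10.9 in Thy1+ KO, 15.1 and 13.4 in c-Kit+ KO, and 28.2, 21.3, 21.5 and 21.1 in the adult libraries. For both genes Thy1+ KO replicate 1 reached or passed the adult range. With Hspa1a and Hspa1l, which are each other's neighbour, 3 of the 9 members have a divergent neighbour within 1 kb, against 7.57% of genes. Only starts listed under a single symbol were searched. The highest Hsf2 promoter peak was listed under 2 symbols in every H3K27ac library, and whether the other gene is a divergent neighbour was not examined.

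Whether loss of Scml2 changes these promoters could be asked in spermatogonia. The knockout itself cannot be checked by this mark: the Scml2 promoter had no peak in the 4 WT libraries, and a weak one in 2 of 4 spermatogonial KO and 2 of 4 adult KO libraries. With limma across 9585 regions called in all 8 libraries, 0% were called for genotype at an adjusted p under 0.05, and none of the 7 members tested (502 regions had an unadjusted p under 0.05, by the same fit). Among these 7 the log2 change ranged from -0.30 for Hspa8 (SE 0.16) to 0.36 for Hsf2 (SE 0.16, limma adjusted p = 0.888), with a median of 0.02, and KO and WT libraries overlapped for every member. The difference in the genotype effect between Thy1+ and c-Kit+ cells gave 0 calls as well (453 at an unadjusted p under 0.05 in limma). Among the 7 members tested the largest value of that interaction was -0.52 for Hspa2 (SE 0.34, limma adjusted p = 0.998), whose Thy1+ KO replicates, at 16.7 and 7.67, lay further apart than those of any other spermatogonial group. The Hspa1a and Hspa1l region, not in these fits for its missing call, had a genotype change of -0.40 with that library at its lowest value and -0.39 without it (limma adjusted p = 0.998 and 0.984). Its interaction was -0.54 and -0.72 (SE 0.42 and 0.41, limma adjusted p = 0.998 and 0.9998).

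Between c-Kit+ and Thy1+ spermatogonia of both genotypes, 1 of 7 members was called, Hspa4l, which rose by 0.63 on the log2 scale relative to the median region (SE 0.15, limma adjusted p = 0.0380), against a background of 1.09% of 9585 regions called, 0.803% higher and 0.282% lower. Of the promoter regions alone 0.872% were called, 0.594% higher and 0.279% lower. The raw values of the 2 cell types overlapped, with means of 5.95 ± 1.78 (SD, n = 4) in Thy1+ and 7.50 ± 1.48 (SD, n = 4) in c-Kit+ cells. This call was lost with quantile normalization (limma adjusted p = 0.0661), with each uncalled library placed at its lowest value (0.0555), and in 6 of 8 fits that left out 1 library, where the adjusted p ran from 0.0580 to 0.139; it held without Thy1+ WT replicate 2 or Thy1+ KO replicate 2. Hsf1 had the lowest value, -0.41 (SE 0.15, limma adjusted p = 0.177).

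From c-Kit+ spermatogonia to PS within the knockout, the promoters of Hspa4l and Hspa2 rose and no member fell. Hspa4l went from 6.75 ± 0.48 to 40.3 ± 6.32 (SD, n = 2 each), a log2 change of 1.49 relative to the median region (SE 0.20, limma adjusted p = 0.000316). Hspa2 went from 5.52 ± 0.44 to 27.8 ± 3.69 (SD, n = 2 each), a log2 change of 1.25 (SE 0.22, limma adjusted p = 0.00109). Of 12501 regions 31.9% were called, 6.83% higher and 25.1% lower, and of the promoter regions alone 23.5%, 8.24% higher and 15.2% lower. Hspa4l lay above 99.9% and Hspa2 above 99.6% of all regions. Without centring, the log2 changes of Hspa4l and Hspa2 were 2.57 and 2.33. Without c-Kit+ KO replicate 2 neither was called (limma adjusted p = 0.0714 for both, with changes of 1.66 and 1.57), nor was any other region.

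The other 5 members tested in that comparison had log2 changes between -0.29 for Hsf2 (SE 0.21) and 0.14 for Hspa8 (SE 0.23), none called, although all 5 were higher in raw fold enrichment in both PS libraries than in both c-Kit+ KO libraries, as were 82.4% of all regions and 90.2% of promoter regions. The shared Hspa1a and Hspa1l region could not enter because of its missing call. With that library set to its lowest value, the region was 0.82 log2 units higher in PS (SE 0.28, limma adjusted p = 0.0119), and with that library left out 1.00 higher (SE 0.22, limma adjusted p = 0.0787).

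Set against all spermatogonial KO libraries, the 4 adult libraries gave 3 calls among 7 members, where 40.6% of 10287 regions were called, 12.8% higher and 27.8% lower, and of the promoter regions 38%, 13.8% higher and 24.2% lower. Hspa4l rose from 6.81 ± 1.45 to 35.4 ± 6.88 (SD, n = 4 each), by 1.71 log2 units relative to the median region (SE 0.13, limma adjusted p = 8.7e-07). Hspa2 rose from 8.85 ± 5.34 to 24.2 ± 4.85 (SD, n = 4 each), by 0.92 (SE 0.15, limma adjusted p = 0.000304), and by 1.01 without Thy1+ KO replicate 1. Both calls held in all 8 fits that left out 1 library.

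The remaining call was Hspa1b, with a log2 change of -0.43 relative to the median region (SE 0.13, limma adjusted p = 0.0151). Its raw values overlapped, 11.7 ± 4.60 in spermatogonia and 13.4 ± 3.04 in adult cells (SD, n = 4 each), and without centring the difference was 0.25, of the opposite sign. The call was lost without PS KO replicate 2 (limma adjusted p = 0.0886), without RS KO replicate 1 (0.0546) and with uncalled libraries at their lowest value (0.154). The Hspa1a and Hspa1l region, with its missing library at the lowest value, was 1.00 log2 unit higher in adult cells (SE 0.25, limma adjusted p = 0.00327), and 1.11 higher without that library (SE 0.15, limma adjusted p = 0.000289).

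**Figure D2:**
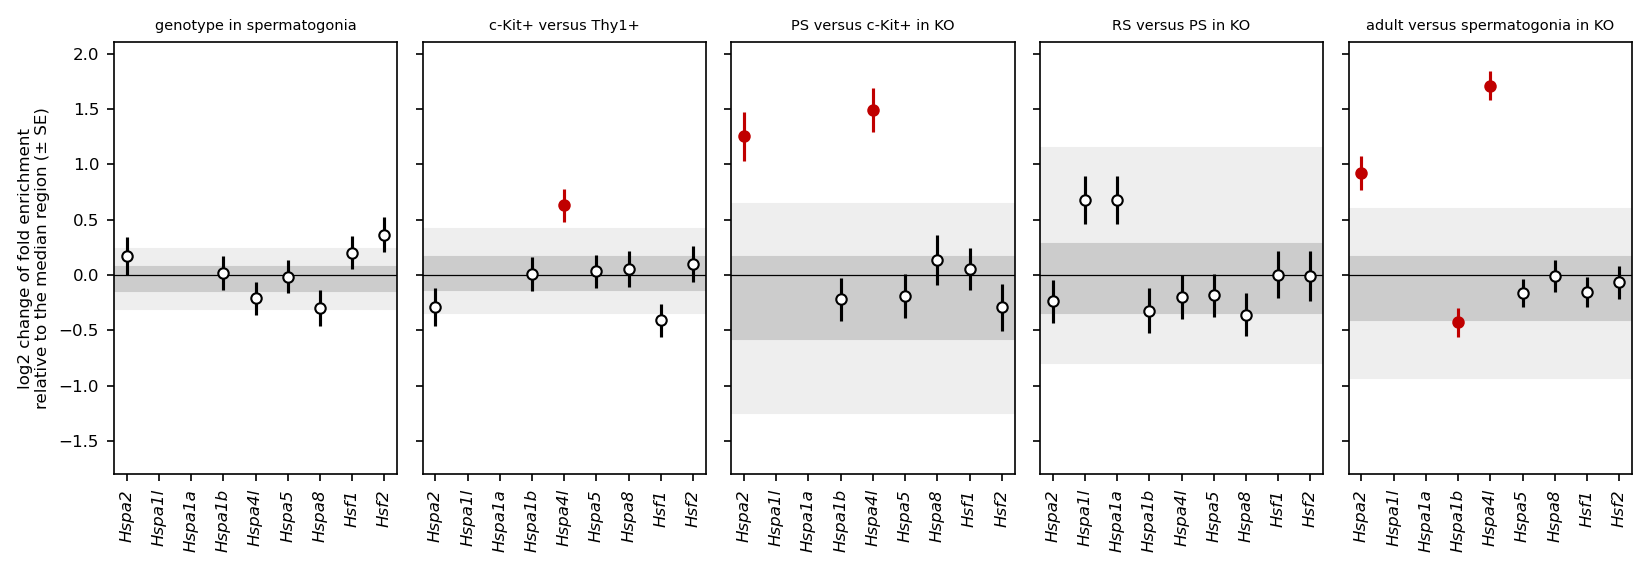
Log2 change of promoter fold enrichment relative to the median region, with its SE, in 5 comparisons; filled red points passed a limma adjusted p of 0.05, dark and light bands hold the middle 50% and 90% of all regions tested, and a gene with no point was not tested. Hspa4l and Hspa2 stand above the bands from c-Kit+ to PS and from spermatogonia to adult cells.

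From PS to RS the promoter of none of the 9 members was called, where 20.2% of 21329 regions were, 12.4% higher and 7.79% lower (7283 regions had an unadjusted p under 0.05 in limma). Of the promoter regions 10.1% were called, 4.76% higher and 5.36% lower. Hspa2 was 27.8 ± 3.69 in PS and 20.6 ± 2.38 in RS (SD, n = 2 each), a log2 change of -0.24 relative to the median region (SE 0.19, limma adjusted p = 0.439), and Hspa4l 40.3 ± 6.32 and 30.6 ± 2.68, a change of -0.20 (SE 0.20, limma adjusted p = 0.525). The 1 member promoter region near the threshold was that of Hspa1a and Hspa1l, at 13.6 ± 1.84 in PS and 18.9 ± 0.11 in RS (SD, n = 2 each). Its log2 change was 0.68 (SE 0.22, limma adjusted p = 0.0548), and it was called with quantile normalization (0.0392), with peaks of a −log10 q of at least 5 (0.0180), with a 50% overlap for merging (0.0407) and with promoter windows as units (0.0298). It was not called in any of the 4 fits that left out 1 library.

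Cell type markers bear on what these groups contain. Of 8 round spermatid genes such as Prm1 and Tnp1, 0 or 1 had a promoter peak in a spermatogonial library and 7 had one in each adult library, PS as well as RS, so these calls do not separate the 2 adult stages, though their summed fold enrichment was 52.8 to 115 in PS and 115 to 138 in RS. Of 7 genes of Thy1+ cells such as Zbtb16, 2 were called in each Thy1+ WT library (summed fold enrichment 13.6 to 15.1) and 1 in each c-Kit+ WT library (11.4 to 12.4). Of 5 genes of c-Kit+ cells such as Kit, 0 or 1 were called in Thy1+ WT libraries (0 to 5.43) and 1 in each c-Kit+ WT library (6.20 to 8.55). In the knockout the 2 spermatogonial types overlapped in both lists, at 12.8 to 34.4 in Thy1+ and 8.16 to 19.4 in c-Kit+ cells for the first and 0 to 12.7 and 4.66 to 16.6 for the second. Both lists had their highest sums in PS, so neither was particular to spermatogonia. The first measured 49.2 to 52.8 in PS and 24.9 to 29.7 in RS, and the second 30.4 to 41.2 and 21.1 to 28.2. Of 7 pachytene genes, 1 or 2 were called in spermatogonia and 6 in each adult library. Of 20 promoters of Sertoli, Leydig, peritubular, macrophage and endothelial genes, 3 to 11 were called in spermatogonia (summed fold enrichment 22.2 to 80.0) and 10 to 13 in adult libraries (58.4 to 110). Some of these lists moved with the groups compared here, and their part in the results was not tested. The 5 Sertoli genes had a summed fold enrichment of 9.91 to 25.5 in c-Kit+ KO, 45.4 to 59.2 in PS, where all 5 were called, and 13.5 to 16.8 in RS libraries. The 5 Leydig genes had 5.83 to 16.6, 22.5 to 25.1 and 4.30 to 5.41, and the 4 macrophage genes 0, 4.80 to 9.15 and 25.97 to 33.2, in the same order. Those of Gata4 and Cdh5 had peaks in all 12 libraries and those of Adgre1, Hsd3b1 and Cyp17a1 in none. A promoter mark is not a transcript, and fewer marked cells and less mark per cell cannot be told apart.

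Adult promoter peaks were also longer, by very different amounts. Length was examined after the values were seen and is given without a test. The Hspa2 promoter peaks of a spermatogonial library summed to between 336 and 1368 bp, and in the adult libraries to 3591, 3586, 4066 and 3427 bp. The ratio of adult to spermatogonial KO lengths was 4.95, greater than for 99.2% of 8752 genes, whose median was 1.63. Hspa4l had a ratio of 3.57 (96.8% of genes lower), with adult lengths of 2723 to 3252 bp. Hspa5, Hspa8, Hspa1b, Hsf1 and Hsf2 lay between 1.50 and 1.86, near the median gene. Adult lengths exceeded all spermatogonial ones in 63.5% of genes.

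**Figure D3:**
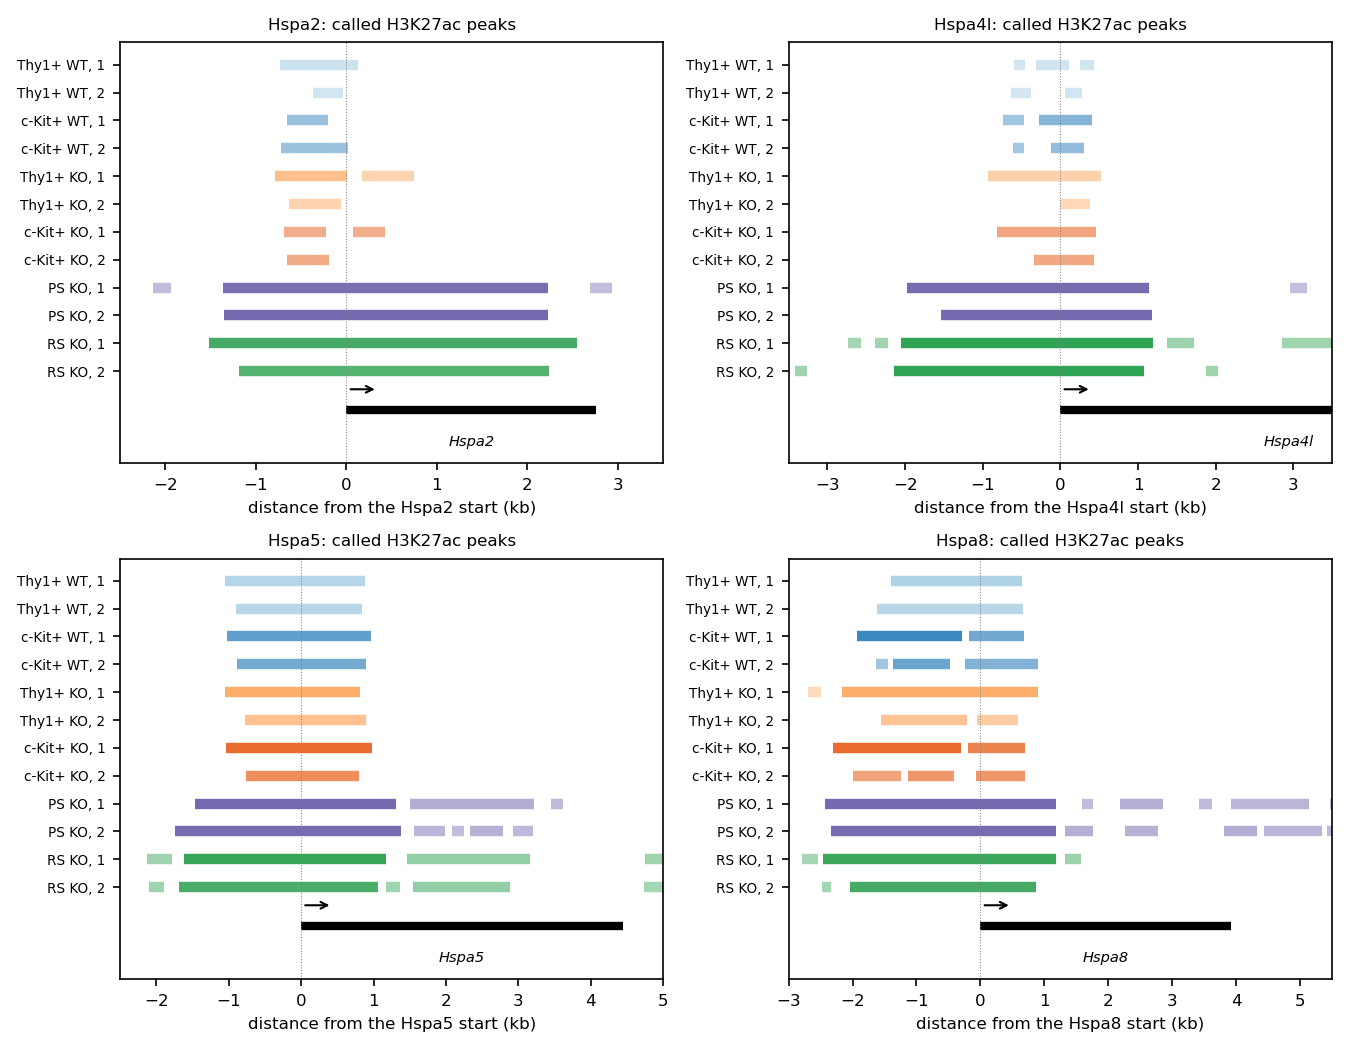
Called H3K27ac peaks (bars, darker where fold enrichment is higher) in 12 libraries around the starts of Hspa2, Hspa4l, Hspa5 and Hspa8, against distance from the start in kb; the black bar is the gene and the arrow its direction, and 0 for Hspa2 is the first of its 2 listed starts. In adult libraries 1 peak covers most of Hspa2, while in spermatogonia peaks lie mostly before the start.

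At Hspa2, whose transcribed span is 2761 bp, peaks lay mostly before the gene in spermatogonia and over most of it in adult cells. In 7 of 8 spermatogonial libraries the highest peak ended before the later listed start. In the other, c-Kit+ KO replicate 1, 2 peaks tied at 5.20, and 1 of them ended before that start. Peaks covered 0 to 4.60% of the transcribed span in 6 libraries, 12.7% in c-Kit+ KO replicate 1 and 21.1% in Thy1+ KO replicate 1. The mean of the 8 was 4.89%, and 2.58% without Thy1+ KO replicate 1. In the 4 adult libraries a single peak began 1384 to 1712 bp before the later start and ended 213 to 531 bp short of the transcript's end, so that peaks covered 83.2% and 80.8% of the gene in PS and 92.3% and 81.0% in RS. Accordingly the 250 bases printed above were covered by 0 to 73.2% in spermatogonia and in full in the 4 adult libraries. The gain in cover was greater than in 99.7% of 1299 genes under 6000 bp with a promoter peak in all libraries, whose median went from 21.4% to 42.7%.

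Cover of Hspa5 was also greater in adult cells, from a higher start. Its printed promoter was under a peak in full in all 12 libraries, and peaks covered 17.9% to 22.2% of the gene in spermatogonia and 58.8% to 71.7% in adult cells (91.1% of genes gained less). Part of this came from a separate run of peaks over its exons, chr2:34773557-34775299, called in the 4 adult libraries at 8.01, 6.93, 6.65 and 7.03 and not called between PS and RS (log2 change 0.07, SE 0.22, limma adjusted p = 0.853). Hspa8 was covered to between 15.1% and 22.8% in spermatogonia, 56.6% and 57.1% in PS, and 36.5% and 22.1% in RS, so that the RS range touched the spermatogonial one. Hspa1b was covered to at most 7.30% in any library.

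**Figure D4:**
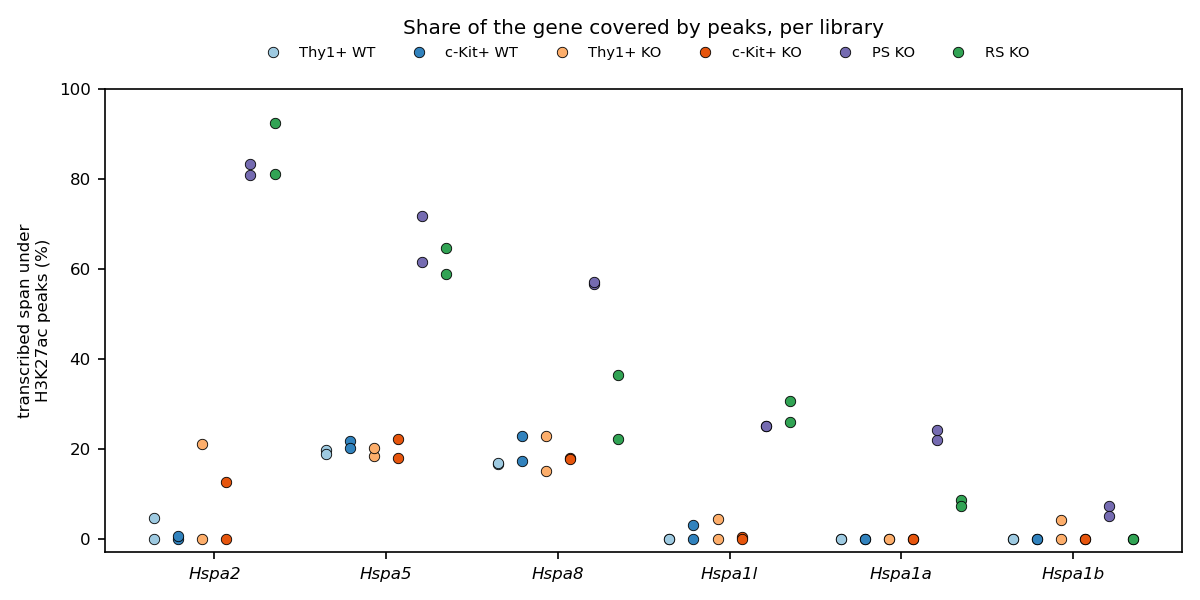
Percent of the transcribed span under called H3K27ac peaks, with 1 point per library, for the 6 members shorter than about 7 kb. Hspa2 goes from at most 21.1% in spermatogonia to at least 80.8% in the adult libraries, and Hspa1b stays at or below 7.30%.

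In the Hspa1b, Hspa1a and Hspa1l cluster on chromosome 17 the starts of Hspa1b and Hspa1a lie 12918 bp apart. In 5 of the 7 spermatogonial libraries with a call, the Hspa1a and Hspa1l peak lay wholly between their 2 starts. In all 4 adult libraries it covered both starts, reaching 488 to 1791 bp into Hspa1l but 155 to 240 bp into Hspa1a. Peaks of any kind covered 24.99% to 30.6% of Hspa1l in adult cells and at most 4.52% in spermatogonia. In Hspa1a they covered 21.9% and 24.2% in PS, 7.22% and 8.61% in RS (each pair from low to high) and none of the gene in spermatogonia. At Hspa1b the highest peak stopped 75 to 265 bp before the start in 11 of 12 libraries, and PS KO replicate 2 was the exception. A separate, weaker peak lay over the start in Thy1+ KO replicate 1 (4.05) and in PS KO replicate 1 (6.10).

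The heat shock elements of the 2 inducible genes lay at the edge of these peaks. In Hspa1a, GAAGATTC (chr17:34972253-34972260) was under a called peak in 0 of 8 spermatogonial and 4 of 4 adult libraries. In Hspa1b, the identical element at chr17:34959335-34959342 was under a peak in 0 of 8 and 2 of 4. These bases are in the sequence the 2 copies share, where read assignment is uncertain, and its part was not tested.

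**Figure D5:**
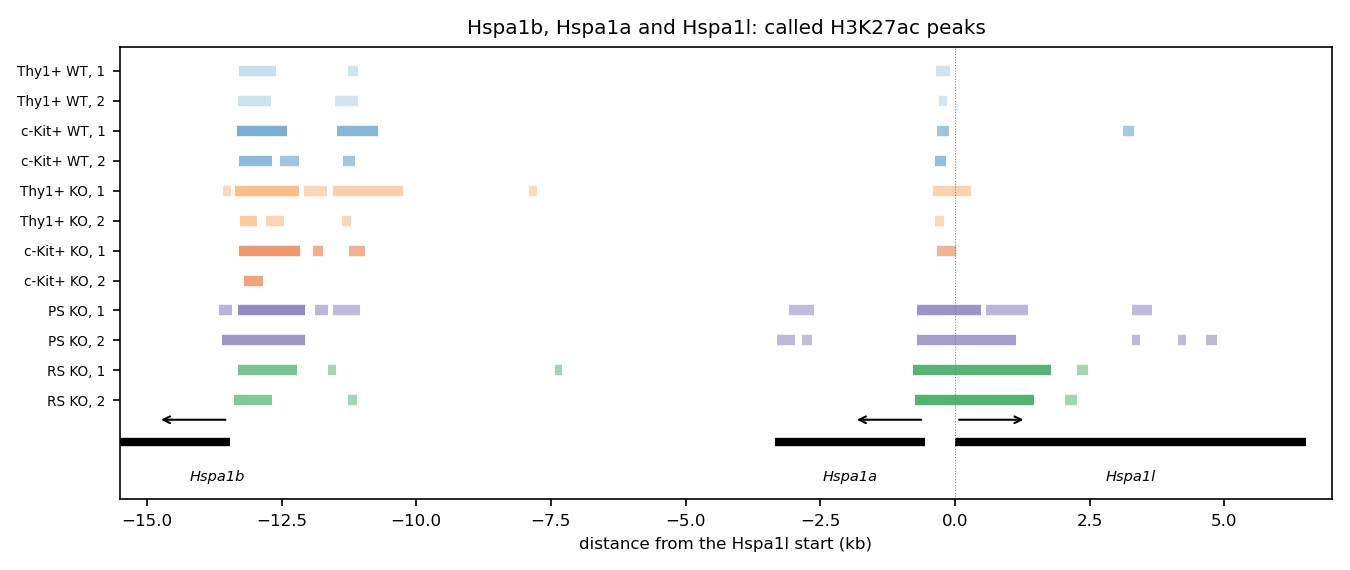
Called H3K27ac peaks (bars, darker where fold enrichment is higher) in 12 libraries over the Hspa1b, Hspa1a and Hspa1l genes (black bars, arrows for direction), against distance from the Hspa1l start in kb. The peak between Hspa1a and Hspa1l spreads into Hspa1l in the 4 adult libraries, and the highest Hspa1b peak ends upstream of its start except in PS KO replicate 2.

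Away from promoters, 43 peaks were listed under the members in the 8 spermatogonial libraries and 96 in the 4 adult ones, of which 7 and 40 had a −log10 q of at least 5. These were 0.0451% and 0.0470% of all peaks outside promoters in those libraries, and 0.0282% and 0.0573% of those with a −log10 q of at least 5. Peaks outside the promoter were in adult libraries alone for Hspa4l (19), Hspa5 (11), Hspa1a (4) and Hspa2 (2). Adult libraries held 204306 peaks outside promoters in all, against 95406 in spermatogonia. The share of all genes with such peaks in adult libraries alone was not computed. A region called in all 4 adult libraries lay in the 3′ part of Hspa4l, at chr3:40782952-40785613, 37.3 kb into the gene over lines classed as exon and intron. It measured 8.39 and 5.33 in PS and 12.1 and 10.8 in RS, and rose by 0.97 log2 units from PS to RS relative to the median region (SE 0.25, limma adjusted p = 0.0266). The call was lost without PS KO replicate 2 (limma adjusted p = 0.187) and without RS KO replicate 2 (0.0690). The Hspa4l promoter itself did not pass the test in the same comparison.

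Hsf2 had the most peaks elsewhere, 59, but 43 of them lay 565 to 1084 kb from its start, and these data do not tie them to Hsf2. Among these was chr10:56503125-56505381, called in the adult libraries at 15.3 and 22.9 in PS and 10.2 and 9.74 in RS (log2 change -0.72, SE 0.23, limma adjusted p = 0.0547). It was called with a replicate block (limma adjusted p = 0.0381) and without PS KO replicate 1 (change -1.02, limma adjusted p = 0.0399). A pair of weaker regions there, chr10:56468684-56469510 and chr10:56485875-56487118, fell relative to the median region from c-Kit+ cells to PS, by 0.84 and 0.72 log2 units (limma adjusted p = 0.00765 and 0.0191). Their raw means were slightly higher in PS, at 6.40 for both against 5.41 and 4.93, and both calls were lost with quantile normalization (limma adjusted p = 0.471 and 0.816) and without c-Kit+ KO replicate 2 or PS KO replicate 1. The inputs held 1 member peak in all, an intergenic one listed under Hsf2.

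The genes most like Hspa2 across the 12 libraries, by Pearson r of centred log2 promoter fold enrichment among 9938 genes, were Mroh1 (r = 0.961), the phosphate exporter gene Xpr1 (r = 0.956) and the sulfhydryl oxidase gene Qsox1 (r = 0.947). Mroh1 ranged from 3.78 to 11.6 in spermatogonia and from 20.0 to 32.5 in adult libraries. Hspa4l had an r of 0.770 and was 434th in that order, while Hspa5 (r = -0.858) was near the opposite end. These correlations are a description: the 12 points fall into stages, and the 2 libraries of a group share theirs.

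The wider chaperone machinery was read from 92 further genes in 7 lists, chosen with earlier results of these data known. In spermatogonia 0 of 66 tested promoters were called for genotype, for the interaction or between c-Kit+ and Thy1+ cells. From c-Kit+ to PS 5 of 70 rose and 3 fell, where 8.24% of promoter regions rose and 15.2% fell, with a median log2 change of 0.12 against -0.06 over all promoter regions. Without c-Kit+ KO replicate 2 none of the 8 calls was left, without c-Kit+ KO replicate 1 there were 14 higher and 3 lower, and without PS KO replicate 1 or 2 there were 4 and 1 or 3 and 1. Sdf2l1, a partner of BiP in the endoplasmic reticulum, rose from 4.70 ± 0.05 to 23.1 ± 8.87 (SD, n = 2 each; log2 change 1.16, SE 0.25, limma adjusted p = 0.00357). The HSP40 gene Dnajb3 rose by 0.94 (SE 0.19, limma adjusted p = 0.00254) and Hspbp1, an exchange factor for HSP70, by 0.75 (SE 0.20, limma adjusted p = 0.0120). Hspa12b, a distant HSP70 relative, fell by 0.82 (SE 0.20, limma adjusted p = 0.00725) relative to the median region, with raw means of 4.70 and 5.60.

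From PS to RS 7 of 81 list promoters rose and none fell, where 4.76% of promoter regions rose and 5.36% fell, with a median of -0.12 against -0.14 over all promoter regions. All 7 calls were lost without PS KO replicate 2, and without each of the other 3 libraries 5 or 6 list promoters rose, with 1 lower without RS KO replicate 2. Dnajc5b, an HSP40 gene, was 6.40 ± 2.27 in PS and 12.7 ± 1.92 in RS (SD, n = 2 each; log2 change 1.22, SE 0.26, limma adjusted p = 0.0146). Pdilt and Calr3, testis chaperones of the endoplasmic reticulum, rose by 1.36 (SE 0.31, limma adjusted p = 0.0175) and 0.92 (SE 0.22, limma adjusted p = 0.0205). Odf1, a small heat shock protein of the sperm tail, rose by 1.22 (SE 0.31, limma adjusted p = 0.0244). Dnajb7, Dnajb8 and Dnajb13 completed the 7.

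Between spermatogonia and adult cells of the knockout, 12 of 69 list promoters rose and 11 fell, where 13.8% of promoter regions rose and 24.2% fell, with a median log2 change of 0.04 against -0.08. Leaving out 1 library gave 7 higher at the fewest (without RS KO replicate 2) and 5 lower (without Thy1+ KO replicate 2). The lower calls also moved over 1.5 times, to 6 or 7, without either PS library or either RS library. Hspd1 and Hspe1 share 1 divergent promoter region, so the 11 lower genes are 10 regions. The chaperonin list, the ring complex that folds actin and tubulin and its mitochondrial counterpart, had 4 lower and 0 higher of 10 distinct regions relative to the median region, those of Hspd1 with Hspe1, Cct4, Cct5 and Cct8, with a median of -0.23. HSP90 and its partners had 4 higher and 1 lower of 18, beside the 13.8% and 24.2% of promoter regions, the higher ones being Hsp90aa1, Stip1, Fkbp5 and Hspbp1. The other HSP70 and HSP110 genes had 3 lower (Hspa4, Hspa12a and Hspa12b) and 0 higher of 7, with a median of -0.32. The HSP40 list had 3 higher and 0 lower of 15, and the small heat shock protein list 2 and 0 of 3. The endoplasmic reticulum list had 3 higher and 2 lower of 13, and the list of other HSF factors 0 and 0 of 2. Among single genes, Sdf2l1 rose by 1.13 (SE 0.17, limma adjusted p = 0.000127), Ddit3, the stress factor CHOP, by 0.80 (SE 0.13, limma adjusted p = 0.000209) and Hspbp1 by 0.74 (SE 0.14, limma adjusted p = 0.000794), and Hspa12b fell by 0.78 (SE 0.14, limma adjusted p = 0.000475). The values for Hspa4l and Hspa2 in the same fit were 1.71 and 0.92.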

How the data were processed

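H3K27ac was measured in 12 libraries of 6 groups, with 16 inputs and 1 peak table a library. Bowtie, MACS2 and mm10 are named in the submitters' processing notes, without versions. Per the file headers, each line held a peak, a summit, its signal height (pileup), a fold enrichment, a −log10 p-value and a −log10 q-value. Signal heights, as deposited, were whole numbers. The fold enrichment deposited by the authors was a ratio that equalled (height + 1)/(background + 1), with a background constant within a library (0.564 to 1.62 in H3K27ac libraries), so it holds no local or input control. Depth is unknown and no counting interval was computed.

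Groups and replicate numbers came from the titles. For each comparison, peaks overlapping by at least 1 bp were merged, regions called in every library compared were kept, and log2 of the highest fold enrichment was centred on the library median and fitted with limma 3.58.1 in R 4.3.3, with Benjamini-Hochberg adjustment over all regions and a threshold of 0.05. Fits were tested on simulated data. Where 1 library of a pair was left out, the lone one was assumed to vary like the others. Of the 92 list genes, the text names for each comparison up to 4 called ones with the smallest adjusted p, and for Hspa2 the 3 genes with the highest r among those called in at least 10 libraries; other list genes are named only by direction. The members and lists were chosen with earlier results of these data known, and peak length, cover and motif position were examined after values were seen. Promoter sequences came from a RefSeq table of GRCm38.p6, in which the listed start was also a start in the files for all 7 members matched. Python 3.11.15, numpy 2.4.6 and pandas 2.3.3 were used. The counts of list genes called without each library, and the cover of Hspa2 without Thy1+ KO replicate 1, were added after seeing the data.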

Additional observations from a re-analysis of the deposited data

How the results depend on the processing

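The precision is limited by 2 libraries a group, an unknown depth and values that exist only where the authors called a peak. Alternatives that moved a count of called regions over 1.5 times were, for c-Kit+ against Thy1+ (104 regions), the replicate block (206), uncalled libraries at their lowest value (430), removal of regions called in inputs (160) and a −log10 q of at least 5 (18). For PS against c-Kit+ (3992) they were quantile normalization (784), lowest values (16394), q (2013) and promoter windows (2312). For RS against PS (4309) they were lowest values (13206), q (1982) and promoter windows (884), and for adult against spermatogonia (4178) lowest values (13529). Member genes called went from 1 to 0 for c-Kit+ against Thy1+ under quantile normalization, lowest values and q. They went from 2 to 4 with lowest values and to 1 with q for PS against c-Kit+, from 0 to 2 for RS against PS with quantile normalization, q, 50% overlap and promoter windows, and from 3 to 1 with q for adult against spermatogonia. With q of at least 5, Hspa2 could not be tested in the comparisons with spermatogonia nor Hspa4l in those with Thy1+ cells, since a library had no such peak, and peaks outside promoters went from 139 to 47. Leaving out 1 library gave 9 to 178 regions and 0 to 1 members for c-Kit+ against Thy1+, 0 to 4564 and 0 to 2 for PS against c-Kit+ (0 without c-Kit+ KO replicate 2), 0 to 3402 and 0 to 0 for RS against PS (0 without PS KO replicate 2), and 3165 to 4324 and 2 to 5 for adult against spermatogonia, the 5 being Hspa1a and Hspa1l beside Hspa2, Hspa4l and Hspa1b without c-Kit+ KO replicate 2. The genotype and interaction fits gave 0 calls in every alternative run.

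With each library centred on its median, the correlation of same-numbered deviations ran from -0.00791 to 0.159. Centring removes what a whole library shares, so these values cannot decide whether replicate numbers pair the libraries. Replicate 1 had more called peaks and a higher background than replicate 2 in every H3K27ac group (36362 against 22949 peaks in c-Kit+ KO). With the replicate block the regions called were 0, 0, 206, 3705, 4456 and 4299 for genotype, interaction, c-Kit+ against Thy1+, PS against c-Kit+, RS against PS and adult against spermatogonia. The members called were 0, 0, 1, 2, 0 and 3, as without the block. Among the members' own regions, promoters and others, the block changed 1 call, that of chr10:56503125-56505381 (adjusted p = 0.0381 from PS to RS, limma).

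Values near 0 that turned sign, none of them called, were in the genotype fit Hspa5, at 0.0394 (quantile), 0.0426 (q) and 0.0170 (windows), and -0.0842 to 0.0659 without 1 library, and Hspa1b (-0.0256 to 0.0923). In the interaction Hspa8 ran from -0.496 to 0.0560. Between c-Kit+ and Thy1+, Hspa1b was -0.00223 with quantile normalization and ran from -0.0631 to 0.0578, Hspa5 from -0.0364 to 0.0922, Hspa8 from -0.0351 to 0.186 and Hsf2 from -0.0134 to 0.203. From c-Kit+ to PS, Hspa8 ran from -0.12 to 0.49. From PS to RS, Hsf2 was 0.0980 (quantile), 0.149 (q), 0.0154 (50% overlap) and 0.144 (windows) and ran from -0.35 to 0.18, Hsf1 from -0.21 to 0.15, and the exon region of Hspa5 was -0.0251 (quantile) and ran from -0.17 to 0.25. Between adult cells and spermatogonia, Hspa8 was 0.0658 (quantile) and 0.0352 (q) and ran from -0.12 to 0.12, and Hsf2 ran from -0.186 to 0.0547. Of all 645 values recomputed for single genes and regions, 573 kept direction and side of the threshold. Promoter calls were 106 within 500 bp and within 2 kb, 94 with q of at least 5 and 108 with any line that lists the symbol.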
